A study of Mus musculus with 23 samples.

Results

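Cdsn, Sprr2h, Rspo2, Epha3, B3galnt1, Glis2, Zfp790 and Fancl were picked because their signals were higher in fibroblasts that had received fibroblast RNA than in fibroblasts that had received cardiomyocyte RNA. They are 8 of 18193 named genes and are read by 15 of the 45101 probe sets of the array, every probe set annotated to these symbols being included. No cut-off came with the choice. The values of the picking contrast are therefore given as a description, without a test, and so is every comparison that uses the same cells.

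The study asked whether transfer of a whole transcriptome can move a cell towards another cell type, and measured 23 single mouse cells on 1 Affymetrix array each. The fibroTIPeR group held 5 fibroblasts transfected with poly-A RNA of cardiomyocytes, and the fibroControl group held 3 fibroblasts transfected with fibroblast RNA. Untransfected cells were 3 fibroblasts and 4 cardiomyocytes, and astrocytes came as 6 astroTIPeR cells given cardiomyocyte RNA and 2 mock-transfected astroControl cells. All were cultured in DMEM with FBS, the RNA was carried in by a lipid reagent, and each cell was drawn into a glass micropipette before its RNA was amplified. The labels name no strain, age, time after transfection, culture or animal, so the spread between cells may be technical and p-values measure that spread alone.

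Levels are log2 values after quantile normalization of all arrays, on which the median probe set stood at 5.05 and the 90th percentile at 9.41. The deposited values were coarsely graded: an array held between 1742 and 5671 distinct values, and between 92.18% and 98.04% of its probe sets shared their value with another, so small differences at low levels carry little information. Precision is limited by how few arrays each group has. The deposited medians fell in 2 sets of arrays, fibroblasts with cardiomyocytes and astrocytes, and a level set across them rests on the normalization. Pairs of arrays correlated between 0.541 and 0.92. The mean of 10 fibroblast markers lay at 7.89 to 10.1 in fibroControl, 8.09 to 8.86 in fibroTIPeR and 7.99 to 9.91 in untransfected fibroblasts, against 5.42 to 7.76 in cardiomyocytes. The mean of 10 cardiomyocyte markers lay at 8.85 to 10.5 in cardiomyocytes, 4.86 to 5.08 in fibroControl, 5.36 to 6.13 in fibroTIPeR and 5.39 to 6.99 in untransfected fibroblasts. Every fibroControl cell was thus below every fibroTIPeR and untransfected fibroblast cell in this mean, in the same contrasts in which the picked genes were higher, and its part in their levels was not tested. The 8 astrocyte markers did not set astrocytes apart, with cell means of 7.04 to 7.89 in astroTIPeR and 6.57 to 7.08 in astroControl against 7.45 to 8.04 in cardiomyocytes, and Gfap, the astrocyte filament protein, averaged 4.69 and 5.32 in the astrocyte groups against 6.01 in untransfected fibroblasts.

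Apart from Cdsn and Sprr2h, both genes of cornifying skin cells, the 8 genes belong to different pathways. Cdsn encodes corneodesmosin, an adhesion glycoprotein of the junctions of cornifying skin cells, and Sprr2h encodes a small proline-rich protein of the cornified envelope that is cross-linked beneath the membrane of such cells. Rspo2 is a secreted R-spondin that binds Lgr4, Lgr5 and Lgr6 and holds off the ligases Rnf43 and Znrf3, which raises the Wnt receptors at the surface. Epha3 is a receptor tyrosine kinase for membrane-bound ephrin-A ligands of neighbouring cells, and B3galnt1 is the glycosyltransferase that makes the glycolipid globoside. Glis2 is a zinc finger transcription factor related to the Gli factors of Hedgehog signalling, Zfp790 is a zinc finger protein of the KRAB class, whose members recruit the corepressor Trim28, and Fancl is the ubiquitin ligase of the Fanconi anaemia core complex, which marks Fancd2 and Fanci at blocked replication forks. None of the 8 is a standard marker of cardiomyocytes or of fibroblasts.

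The 100 bases before the RefSeq start sites of the genes that were picked together are shown, to see what their promoters share, for the 6 of the 8 genes found in the promoter table (GRCm38.p6, 7 start sites, Cdsn having 2). Glis2 and Rspo2 are named only. Each is written 5′ to 3′ on the strand of its gene, with capitals for matches, on either strand, to the 4 short motifs that are spelled out after the sequences.
Cdsn, upstream start (chr17:35543001-35543100, plus strand): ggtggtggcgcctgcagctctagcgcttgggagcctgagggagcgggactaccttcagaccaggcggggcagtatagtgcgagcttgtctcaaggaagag
Cdsn, downstream start (chr17:35552028-35552127, plus strand): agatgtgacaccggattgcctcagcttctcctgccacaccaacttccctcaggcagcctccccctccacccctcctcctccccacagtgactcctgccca
Sprr2h (chr3:92385585-92385684, plus strand): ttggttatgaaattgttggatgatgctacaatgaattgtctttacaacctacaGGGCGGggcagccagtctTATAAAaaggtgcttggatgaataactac
Fancl (chr11:26386984-26387083, plus strand): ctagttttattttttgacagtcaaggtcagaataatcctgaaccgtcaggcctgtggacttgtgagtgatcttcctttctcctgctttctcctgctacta
Epha3 (chr16:63864176-63864275, minus strand): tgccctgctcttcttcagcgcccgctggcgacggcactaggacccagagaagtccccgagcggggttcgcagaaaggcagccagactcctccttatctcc
Zfp790 (chr7:29815972-29816071, plus strand): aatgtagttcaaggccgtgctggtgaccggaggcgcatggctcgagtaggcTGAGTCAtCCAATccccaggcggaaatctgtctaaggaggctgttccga
B3galnt1 (chr3:69598961-69599060, minus strand): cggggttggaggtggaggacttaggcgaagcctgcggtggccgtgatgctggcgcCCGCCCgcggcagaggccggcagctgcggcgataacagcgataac

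The promoters had no searched motif in common. TATAAA, the letters of a TATA box, lay 29 to 24 bases before the Sprr2h start and in 5.56% of all 32851 promoter windows of this length. GGGCGG, the core of a GC box, lay at Sprr2h and, on the other strand, at B3galnt1, and in 24.7% of all windows. TGANTCA, the letters of an AP-1 element, and CCAAT lay side by side at Zfp790, and in 2.73% and 18.9% of all windows. Base composition also varied, from 40% G and C with 1 CpG at Sprr2h to 70% with 12 CpGs at B3galnt1, around a median of 55% and 3 CpGs over all windows. These matches describe letters in the windows shown.

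**Figure D1:**
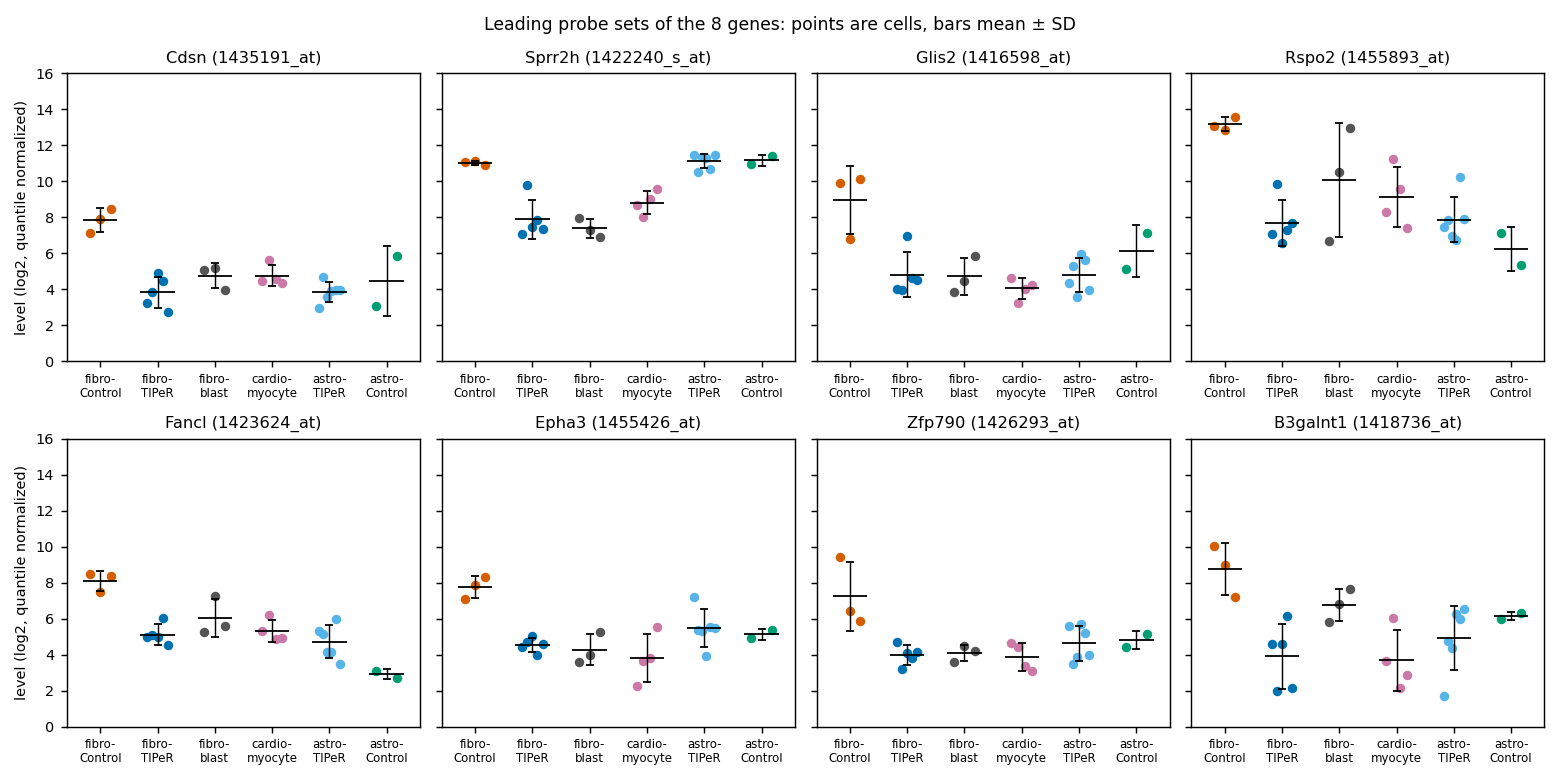
Normalized log2 level of the leading probe set of each of the 8 genes (vertical axis) in every cell, by group (horizontal axis); each point is 1 cell, and the bars are the group mean and SD. The fibroControl cells lie above the fibroTIPeR cells for every gene except Glis2, where fibroTIPeR 3 at 6.96 passes fibroControl 2 at 6.78, and Sprr2h is as high in astrocytes as in fibroControl.

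The choice described the genes as high with fibroblast RNA, and cell by cell this held to different degrees. Where a gene had several probe sets, the one with the highest mean over the 23 cells is called its leading probe set. That mean includes the fibroControl cells, so the choice favours probe sets that were high in them. All 3 fibroControl cells lay above all 5 fibroTIPeR cells for 7 of the 8 leading probe sets and for 8 of all 15, a pattern that 1.64% of the 45037 probe sets showed. They lay above all 3 untransfected fibroblasts for 6 leading probe sets and 7 of 15, against 11.9% of all probe sets. They lay above both groups for 5 leading probe sets (Cdsn, Sprr2h, Epha3, Zfp790 and Fancl) and for the second probe set of Rspo2, against 1.03%. They lay above all 4 cardiomyocytes for all 8 leading probe sets and for 10 of 15, against 7.7%. On normalized levels only Cdsn, Zfp790 and Fancl, with that second Rspo2 probe set, stood above all 20 other cells of the study, against 0.173% of all probe sets. Since these contrasts share the cells by which the genes were picked, the shares are printed as context. "High only with fibroblast RNA" was thus not what the leading probe sets showed for Sprr2h, Rspo2, B3galnt1 or Glis2. Nor was it what the second probe sets of Zfp790 and Fancl showed. For the leading probe set of Epha3 it depended on the scaling, the order against the highest astrocyte being reversed in the deposited values.

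Among the skin barrier genes, Cdsn was read by a single probe set, 1435191_at. Its level was 7.12, 7.91 and 8.45 in fibroControl 1 to 3, and 3.22, 3.83, 4.88, 4.45 and 2.76 in fibroTIPeR 1 to 5. Untransfected fibroblasts had 5.08, 5.20 and 3.95, cardiomyocytes 4.49, 5.62, 4.58 and 4.35. AstroTIPeR cells ran from 2.95 through a median of 3.92 to 4.70, and the astroControl cells had 3.09 and 5.83. The 3 fibroControl cells were thus apart from all others, the gap to the nearest fibroTIPeR cell being 2.24 log2 units and to the nearest fibroblast 1.92. Group means were 7.83 ± 0.67 (SD, n = 3) in fibroControl, 3.83 ± 0.87 (n = 5) in fibroTIPeR and 4.74 ± 0.69 (n = 3) in fibroblasts, differences of 4.0 and 3.08. Within their own arrays the Cdsn values of fibroControl exceeded 79.5% to 86.6% of probe sets, so the gene was in the upper part of the range without being among the most intense.

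Sprr2h was read by 1422240_s_at, a probe set whose suffix marks probes that can match several transcripts, so signal from closely related Sprr2 genes cannot be told apart from its own. Levels were 11.05, 11.13 and 10.90 in fibroControl, the tightest of the 8 leading probe sets there (mean 11.02, SD 0.12), and 7.05, 9.78, 7.44, 7.85 and 7.34 in fibroTIPeR. Untransfected fibroblasts had 7.94, 7.29 and 6.89 and cardiomyocytes 8.66, 8.01, 9.0 and 9.58. Astrocytes reached the fibroControl level with either treatment, from 10.53 through a median of 11.32 to 11.47 in astroTIPeR and at 10.95 and 11.37 in astroControl. The fibroControl mean exceeded that of fibroTIPeR by 3.13 and that of fibroblasts by 3.65, but not those of the astrocyte groups, 11.13 ± 0.41 (n = 6) and 11.16 ± 0.30 (n = 2). This last comparison crosses the 2 sets of arrays.

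No other Sprr gene looked at placed all fibroControl cells above both other fibroblast groups. Sprr2f and Sprr3 placed them above all untransfected fibroblasts, as 11.9% of all probe sets did. Sprr2d ran from 6.09 to 8.81 in fibroControl, 5.70 to 7.63 in fibroTIPeR and 5.66 to 9.85 in fibroblasts. Sprr2k ran from 6.45 to 7.41, 6.04 to 7.35 and 7.39 to 8.68 in the same order, so the untransfected fibroblasts reached highest. Sprr2f was lower, at 4.51 to 5.87, 3.81 to 4.61 and 3.27 to 3.74, and reached 6.40 in astroTIPeR and 7.27 in astroControl. Sprr3 ran from 4.86 to 6.42, 4.22 to 5.32 and 3.13 to 4.69 in the fibroblast groups. Keratinocyte markers as a list did not move with Cdsn and Sprr2h: the mean of 11 measured markers lay at 6.29 to 6.88 in fibroControl, 5.72 to 6.92 in fibroTIPeR and 5.88 to 6.76 in fibroblasts. Krt5, a basal keratin, and Lor, the main cornified envelope protein, were near the top of the range in every group of the study. Their means were 12.70 and 12.04 in fibroControl, 12.79 and 12.01 in fibroTIPeR and 12.81 and 12.13 in fibroblasts. They were 12.98 and 12.39 in cardiomyocytes, 12.91 and 12.10 in astroTIPeR and 12.73 and 11.87 in astroControl, so these probe sets set no cell type apart. Krt14, a basal keratin, and Trp63, a transcription factor of basal epithelium, averaged 5.76 and 5.17 in fibroControl, 6.58 and 4.70 in fibroTIPeR and 6.07 and 4.62 in fibroblasts. The part of keratinocyte RNA in the Cdsn and Sprr2h levels was not tested.

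Rspo2 had the second largest difference of all 45037 probe sets between fibroControl and fibroTIPeR. Its leading probe set, 1455893_at, read 13.08, 12.85 and 13.59 in fibroControl, above 99.2% to 99.7% of probe sets on the same arrays, and 7.09, 9.86, 6.54, 7.28 and 7.69 in fibroTIPeR. Untransfected fibroblasts were spread over more than the gap between those groups, at 6.69, 10.51 and 12.96. Fibroblast 3, an untransfected cell, was therefore slightly above fibroControl 2, at 12.96 against 12.85. Cardiomyocytes had 8.29, 11.23, 9.59 and 7.38, astroTIPeR cells ran from 6.75 through a median of 7.65 to 10.22, and astroControl cells had 7.11 and 5.35. The mean difference was 5.48 from fibroTIPeR and 3.12 from fibroblasts, whose SD was 3.16. The second probe set, 1430104_at, was far lower but also had fibroControl above both other fibroblast groups, at 5.83, 5.73 and 5.77 in fibroControl against 4.31 to 5.15 in fibroTIPeR and 3.95 to 4.69 in fibroblasts.

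Epha3 was read by 4 probe sets that disagreed. The leading one, 1455426_at, had 7.09, 7.84 and 8.33 in fibroControl, 4.40, 4.69, 5.05, 3.95 and 4.61 in fibroTIPeR, and 3.61, 3.95 and 5.26 in untransfected fibroblasts, with differences of 3.21 and 3.48. Cardiomyocytes had 2.27, 3.64, 3.82 and 5.52, astroControl cells 4.90 and 5.35, and astroTIPeR cells ran from 3.90 through a median of 5.42 to 7.22. The highest astrocyte thus passed the lowest fibroControl cell on normalized levels. In the deposited values the order was the reverse, at 6.91 in astroTIPeR 1 and 7.20 in fibroControl 1. This comparison too crosses the 2 sets of arrays. On 1426057_a_at fibroControl had 4.17, 4.40 and 6.31, but the untransfected fibroblasts were the highest group at 5.45, 6.23 and 6.27, and fibroControl was 1.02 lower on average. The other Epha3 probe sets, 1425574_at and 1425575_at, differed by -0.013 and -0.93 between fibroControl and fibroTIPeR, and 1426057_a_at by 0.62. Only the leading one of the 4 placed all fibroControl cells above all fibroTIPeR cells, and without fibroTIPeR 3, which had 5.77, 1426057_a_at did too.

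B3galnt1, with the single probe set 1418736_at, read 10.06, 9.0 and 7.17 in fibroControl and 4.58, 2.0, 4.58, 6.16 and 2.15 in fibroTIPeR. Untransfected fibroblasts were intermediate at 5.83, 6.78 and 7.63, the highest of them above fibroControl 3. The difference of 4.85 between fibroControl and fibroTIPeR ranked 6 among all probe sets, while the 1.99 between fibroControl and fibroblasts ranked 2526. Cardiomyocytes had 3.64, 6.04, 2.15 and 2.85, a range that overlapped that of fibroTIPeR, as it did for every other leading probe set. The part of the transfected RNA in these levels was not tested. Astrocytes had 1.69 to 6.51 with a median of 5.36 in astroTIPeR and 5.98 and 6.28 in astroControl.

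Of the nuclear genes, Glis2 had the loosest separation. Its leading probe set, 1416598_at, read 9.92, 6.78 and 10.13 in fibroControl and 4.03, 3.98, 6.96, 4.63 and 4.50 in fibroTIPeR, so fibroTIPeR 3 stood above fibroControl 2. Untransfected fibroblasts had 3.85, 4.45 and 5.87, cardiomyocytes 4.65, 3.26, 4.01 and 4.26, and astroControl 2 reached 7.15. Mean differences of 4.12 from fibroTIPeR and 4.22 from fibroblasts therefore rested mainly on fibroControl 1 and 3. The second probe set, 1416599_at, averaged 4.28 in fibroControl and 4.76 in fibroTIPeR, the opposite order.

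Zfp790 on its leading probe set, 1426293_at, read 9.40 in fibroControl 1 but 6.42 and 5.86 in the others, against 4.71, 3.17, 4.09, 3.82 and 4.14 in fibroTIPeR and 3.56, 4.45 and 4.21 in untransfected fibroblasts. The groups did not overlap, yet the SD of 1.90 in fibroControl showed that 1 cell carried much of the 3.24 difference. Cardiomyocytes had 4.65, 4.44, 3.35 and 3.09, and astrocytes reached 5.69. The second probe set, 1426292_at, had 3.95, 4.78 and 4.27 in fibroControl against 3.56 to 4.14 in fibroTIPeR and a difference of 0.40.

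Fancl on 1423624_at read 8.47, 7.46 and 8.35 in fibroControl and 4.98, 5.06, 4.97, 6.05 and 4.50 in fibroTIPeR. Untransfected fibroblasts had 5.25, 7.24 and 5.59, so fibroblast 2 came within 0.21 of the lowest fibroControl cell. The differences were 2.98, the smallest among the leading probe sets at rank 139 of 45037, and 2.06. The second Fancl probe set, 1432337_at, gave the opposite order: 4.69, 4.78 and 4.70 in fibroControl against 6.87, 8.34 and 9.41 in fibroblasts, a difference of -3.48, with 6.10, 3.83, 3.98, 3.72 and 8.58 in fibroTIPeR. Of the 5 genes with more than 1 probe set, only for Rspo2 did every probe set place all fibroControl cells above all fibroTIPeR cells.

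**Figure D2:**
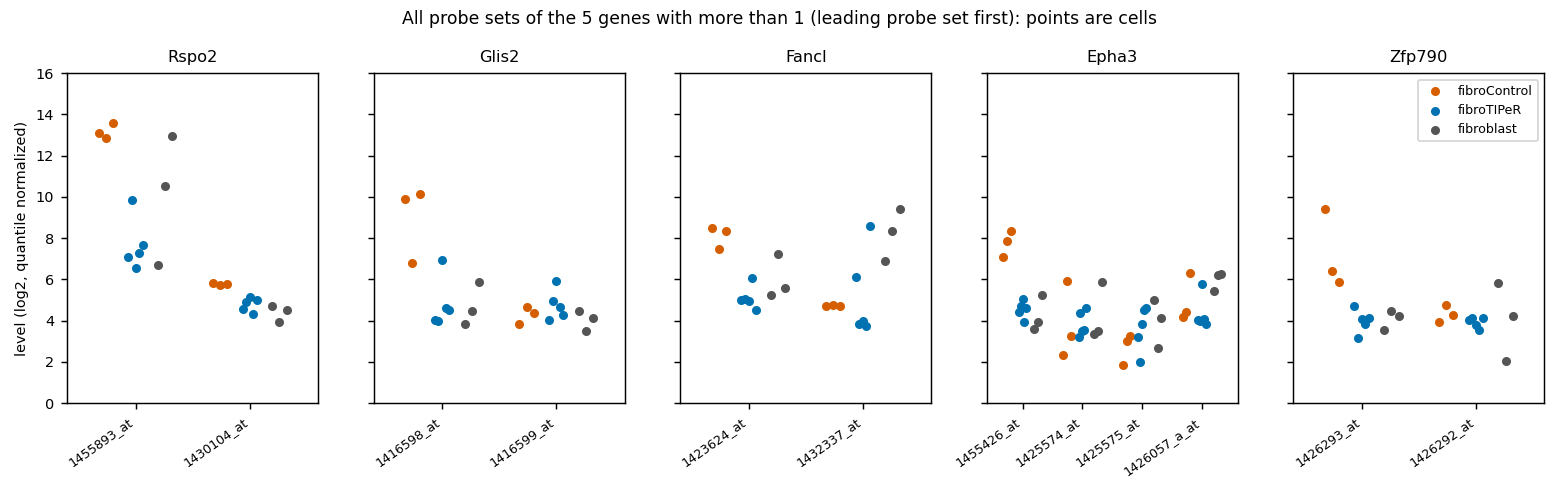
Normalized log2 level (vertical axis) of every probe set of the 5 genes with more than 1, leading probe set first, in the fibroControl, fibroTIPeR and untransfected fibroblast cells (points). On the leading probe sets of these genes fibroControl exceeded fibroTIPeR by 2.98 to 5.48 in the mean, while on the others the difference lay between -0.93 and 1.0. Leading probe sets were chosen by a mean that includes the fibroControl cells, so this contrast is a description.

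Signals other than these genes also differed between the cells. The array's probe sets for 18S ribosomal RNA averaged 11.2 to 12.1 in fibroControl and 7.05 to 8.06 in untransfected fibroblasts, and those for the B2 repeat 11.02 to 12.5 against 6.66 to 11.02. The highest B2 value among these fibroblasts was that of fibroblast 3, against 6.66 and 7.34 in the others. Fibroblast 3 was also the highest of them for Rspo2 and B3galnt1 on the leading probe sets. The fibroTIPeR cells were divided, with 18S at 12.4, 11.03 and 13.5 in cells 1 to 3 and at 7.80 and 7.88 in cells 4 and 5. The members were low in both kinds of fibroTIPeR cell, but they were picked for low levels in these same cells. The split is therefore a description, and the part of 18S in the picking contrast was not tested. Against cells 1 to 3 alone, fibroControl was higher by 3.85 for Cdsn, 2.94 for Sprr2h, 5.34 for Rspo2, 3.04 for Epha3, 5.03 for B3galnt1, 3.96 for Glis2, 3.24 for Zfp790 and 3.09 for Fancl. Against cells 4 and 5 alone these differences were 4.22, 3.43, 5.68, 3.48, 4.58, 4.38, 3.25 and 2.82. The part of the 18S difference in the contrast with untransfected fibroblasts was not tested for the members, since those cells lay entirely below fibroControl in 18S. The 3′ to 5′ difference of the Gapdh probe sets overlapped, at 4.80 to 5.86 in fibroControl, 2.93 to 5.44 in fibroTIPeR and 4.54 to 6.44 in fibroblasts. In single cells, a lower level and a transcript lost in amplification cannot be told apart.

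**Figure D3:**
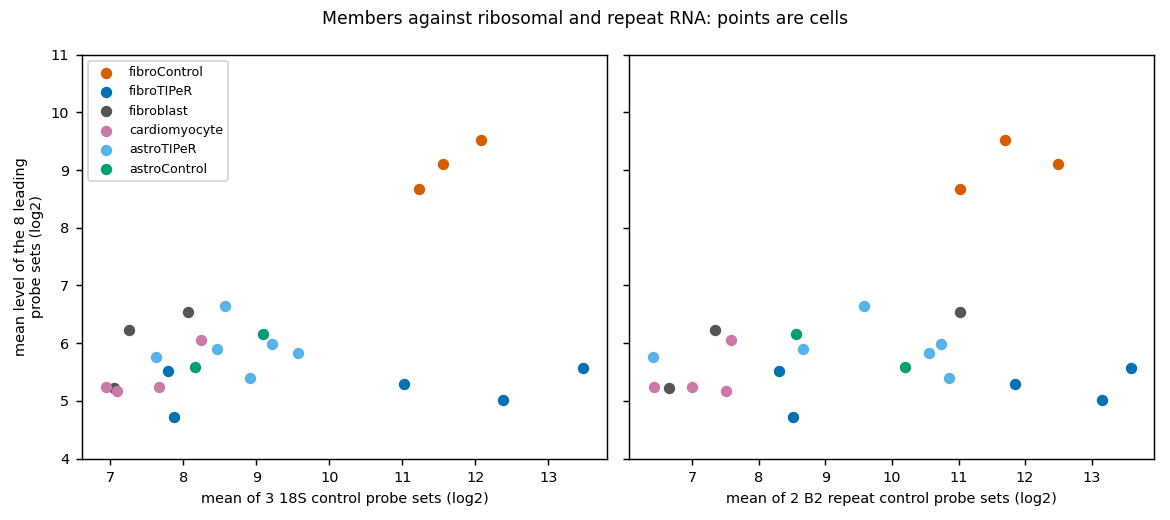
Mean log2 level of the 8 leading probe sets in each cell (vertical axis) against the mean log2 level of the 18S probe sets (left) and of the B2 repeat probe sets (right), coloured by group. The fibroControl cells stand at 8.67 to 9.52 for the members, and the fibroTIPeR cells, by whose low levels the genes were picked, at 4.71 to 5.56. Some fibroTIPeR cells have an 18S signal near that of fibroControl and others near that of untransfected fibroblasts, and the part of 18S was not tested.

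Cells outside the picking contrast allowed tests. Neither untransfected cardiomyocytes against untransfected fibroblasts nor astroTIPeR against astroControl uses a fibroControl or fibroTIPeR cell for its means. In cardiomyocytes against fibroblasts none of the 15 probe sets passed an adjusted p of 0.05 (limma, Benjamini-Hochberg over all probe sets), where 0.127% of all did, and 4 of 15 had an unadjusted p under 0.05, as did 9.23% of all. B3galnt1 had 3.67 ± 1.69 (SD, n = 4) in cardiomyocytes and 6.75 ± 0.90 (n = 3) in fibroblasts, a difference of -3.08 (SE 1.08, 95% interval -5.29 to -0.87, limma adjusted p = 0.365). Epha3 on 1426057_a_at had 3.31 ± 0.39 against 5.98 ± 0.47 with no overlap (difference -2.67, SE 0.59, limma adjusted p = 0.0685), and this probe set passed when 18S entered the model (limma adjusted p = 0.0417). Sprr2h was higher in every cardiomyocyte than in every fibroblast, by 1.44 on average (interval 0.20 to 2.68, limma adjusted p = 0.47). The second probe set of Fancl differed by -2.78 (interval -4.97 to -0.60, limma adjusted p = 0.423). Intervals for the remaining leading probe sets all included 0, from 0.016 (-1.30 to 1.33) for Cdsn to -0.93 (-3.20 to 1.34) for Rspo2, so a level 1 log2 unit lower in cardiomyocytes lay within every one of them.

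In astrocytes the transfer of cardiomyocyte RNA was compared with mock transfection, and again 0 of 15 probe sets passed (limma adjusted p, 0.127% of all passing), with 1 of 15 at an unadjusted p under 0.05, as were 9.81% of all. That was the leading Fancl probe set, at 4.70 ± 0.92 (n = 6) in astroTIPeR and 2.90 ± 0.27 (n = 2) in astroControl, which did not overlap (difference 1.80, SE 0.71, interval 0.34 to 3.26, limma adjusted p = 0.363). In fibroblasts the cells given cardiomyocyte RNA had the lower level on this probe set, but that direction came with the picking. The controls of the astrocytes received no RNA, and the difference between the recipients was not tested. The second Fancl probe set differed by -0.35 in astrocytes (interval -2.69 to 1.98, limma adjusted p = 0.967). Rspo2 differed by 1.62 (interval -0.80 to 4.05, limma adjusted p = 0.72), Glis2 by -1.33 (-3.20 to 0.53, 0.69) and B3galnt1 by -1.21 (-3.57 to 1.15, 0.815). Sprr2h, high in both astrocyte groups, differed by -0.036 (interval -1.36 to 1.29, limma adjusted p = 0.995).

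The 8 genes did not vary together where they had not been picked. Over the 7 untransfected fibroblasts and cardiomyocytes the 28 pairs of leading probe sets had a median Pearson r of 0.17, from -0.95 for Sprr2h with B3galnt1 to 0.68 for Fancl with B3galnt1, and 15 were positive. Over the 8 astrocytes the median was -0.093, from -0.78 for Epha3 with B3galnt1 to 0.77 for Rspo2 with Fancl, and 11 were positive. These values share the arrays and mix cell groups, so they are a description.

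The families and pathways around the 8 genes were described through 7 lists, 199 genes of which 181 were measured by 373 probe sets, the 8 genes left out. Between fibroTIPeR and fibroControl none of these passed (limma adjusted p under 0.05), 25 having an unadjusted p under 0.05, which is 6.70% against 6.40% of all probe sets. Of all 45037 probe sets 1 passed, 0.00222%; it belongs to the picked genes and is given as background only, with nothing read from it. The median difference of the relatives, fibroTIPeR minus fibroControl, was -0.027 beside -0.0049 for all probe sets, with 180 higher and 193 lower.

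List by list, no probe set passed, and the medians lay on either side of 0. Of 73 probe sets for cornified envelope and desmosome genes the median difference was -0.052. Hornerin (Hrnr), an S100-fused envelope protein, averaged 2.38 in fibroTIPeR against 4.10 in fibroControl, and desmoplakin (Dsp), the plaque protein of desmosomes, 6.01 against 3.32 (limma adjusted p = 0.467 and 0.511). Of 92 probe sets for R-spondins, their receptors and Wnt signalling the median was -0.025, and the smallest p-values went to Tcf7l1, at 3.92 against 6.41, and Tcf7l2, at 4.93 against 2.70, transcription factors of the pathway with opposite signs (limma adjusted p = 0.572 for each).

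Eph receptors and ephrins, with 41 probe sets, had a median of 0.042. Their smallest p-values went to ephrin-B2 (Efnb2), at 5.66 in fibroTIPeR against 7.15 in fibroControl, and ephrin-B1 (Efnb1), at 6.83 against 8.62 (limma adjusted p = 0.745 and 0.825). Glycosphingolipid enzymes, with 50, had a median of -0.038, led by the sialyltransferase St3gal2 at 6.02 against 8.76 and the galactosyltransferase B3galt5 at 5.46 against 3.36 (limma adjusted p = 0.572 and 0.757). For the nuclear genes the medians were -0.097 over 34 probe sets of Gli, Glis, Zic and Hedgehog genes, 0.15 over 35 of KRAB zinc fingers and their corepressor, and -0.042 over 48 of the Fanconi pathway. Named by smallest p, Zic5 differed by 1.16 and Gli3 by -1.36, Zfp84 by 1.39 and the heterochromatin protein Cbx1 by -1.70, and the nuclease Ercc4 by 1.33 and the core complex partner Faap100 by -0.24, with limma adjusted p-values from 0.671 to 0.814.

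**Figure D4:**
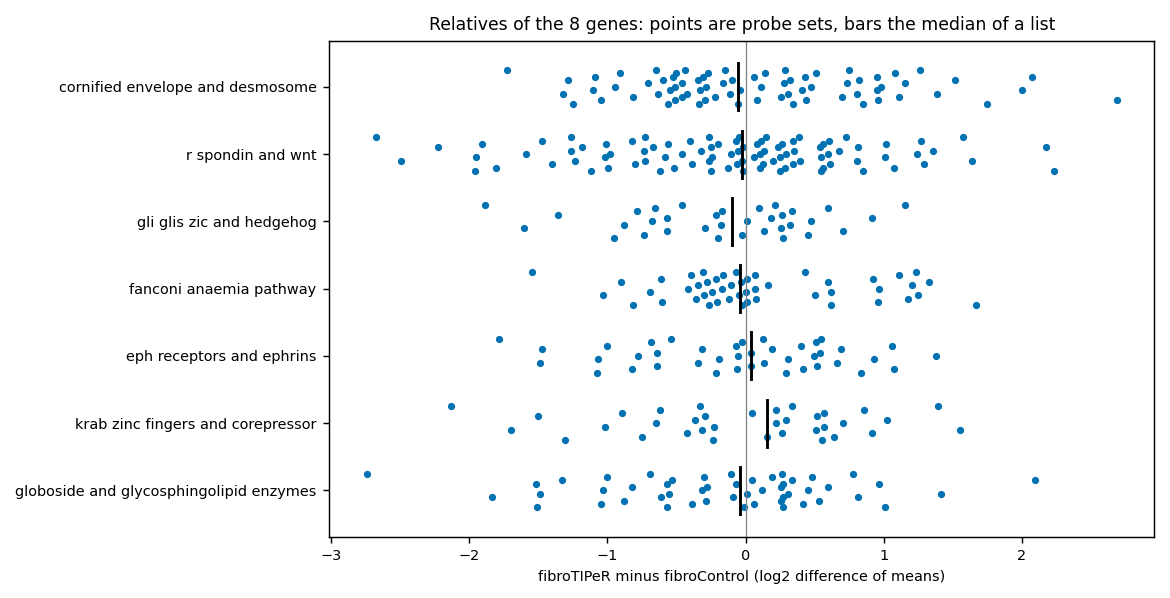
Difference in mean log2 level, fibroTIPeR minus fibroControl (horizontal axis), of each of the 373 probe sets of the 7 lists of relatives (points), with the median of each list as a bar. List medians lie between -0.097 and 0.15, around the -0.0049 of all probe sets.

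Against untransfected fibroblasts, fibroControl cells had 7 of the 373 related probe sets past the threshold (limma adjusted p under 0.05), 1.88% against 1.32% of all. Of these 5 were lower in fibroControl. The cornified envelope and desmosome list fell in 3 of 73 probe sets and rose in none: the desmosomal cadherin Dsg2 fell from 8.61 in fibroblasts to 4.48 in fibroControl (SE 0.91, limma adjusted p = 0.0244), the late envelope gene Lce1c from 6.33 to 3.24 (adjusted p = 0.0224) and the small proline-rich gene Sprr1b from 5.94 to 3.09 (adjusted p = 0.0414). Cdsn and Sprr2h were higher in the same fibroControl cells. Zic5 fell from 5.46 to 2.86 (limma adjusted p = 0.0173) and Usp1, the deubiquitinase that takes the Fancl mark off again, from 7.11 to 3.41 (adjusted p = 0.0481). Those that rose were Efnb2, from 3.87 to 7.15 (SE 0.76, limma adjusted p = 0.0323), and Faap100, from 12.91 to 13.50 (adjusted p = 0.0435). These calls rested on single probe sets: Dsg2 had 5 others, differing by -2.99 to 1.30, Efnb2 had 3, from -1.26 to 0.75, and Usp1 had 2, at -0.58 and 1.74, none of them past the threshold. The 18S level moved with this contrast, as given above, and with it in the model none of the 45037 probe sets passed (limma). In that fit the 7 had the same sign, Usp1 at -5.32, Sprr1b at -3.49, Dsg2 at -3.08, Lce1c at -2.36, Zic5 at -2.25, Efnb2 at 1.95 and Faap100 at 0.37 (limma adjusted p from 0.214 to 0.585). All fibroControl cells lay above all these fibroblasts in 18S, so 18S and the transfection cannot be told apart here. Without fibroblast 2 or without fibroblast 3 the related count was 0, without any 1 fibroControl cell it was 1. With values as deposited it was 4, Usp1, Faap100 and Efnb2 missing the threshold, and the median of all probe sets moved from 0.047 to -0.068.

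Elsewhere the relatives gave a single call. Dsp, which cardiomyocytes need in their intercalated discs, was higher in cardiomyocytes than in fibroblasts, at 10.5 ± 0.91 (n = 4) against 5.48 ± 0.48 (n = 3) (difference 5.02, SE 0.86, limma adjusted p = 0.00805), 1 of 373 related probe sets against 0.127% of all. It did not pass without fibroblast 1, without fibroblast 3 or in a fit of these groups alone, and the other Dsp probe sets differed by 0.31 and 0.19. In astroTIPeR against astroControl none passed (limma), with 34 at an unadjusted p under 0.05, 9.12% against 9.81% of all probe sets.

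The probe sets whose pattern over the 11 fibroControl, fibroTIPeR and fibroblast cells was most like the mean of the standardised leading probe sets were 1456576_x_at and 1436980_x_at of Cnot2, a subunit of the CCR4-NOT complex that shortens poly-A tails, with Pearson r of 0.937 and 0.922. Rapgef3, an exchange factor activated by cyclic AMP, followed at 0.915, Ager, the receptor for advanced glycation end products, at 0.908, and the tRNA methyltransferase gene Trmt2a at 0.897. Cnot2 on the first of these ran from 6.27 to 6.62 in fibroControl, 2.82 to 4.23 in fibroTIPeR and 3.74 to 4.13 in fibroblasts. Over all 23 cells the same Cnot2 probe sets came first, at 0.799 and 0.814, before Eno2 at 0.776, Clock at 0.772 and Cttnbp2 at 0.766. The suffix of the Cnot2 probe sets marks probes that may bind other transcripts. All probe sets named here were selected for their likeness from those with 1 gene symbol, the members left out.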

How the data were processed

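The authors deposited log2 expression values, as judged from their range; the summarization and normalization behind them: not given in the sources used here. Deposited column medians differed by 1.29, so all 23 columns were quantile normalized (limma 3.58.1, R 4.3.3). Of 45101 probe sets, 64 controls were left out; 34945 of the rest carried 1 gene symbol, 932 several and 9160 no symbol. A probe set was tested with lmFit, with a mean for each of 6 groups, and eBayes with trend, two-sided, with Benjamini-Hochberg adjustment over 45037 and a threshold of 0.05. The members and lists were chosen with earlier results of these data known. From each list, up to 4 calls with the largest change were named, or the 2 with the smallest p between fibroTIPeR and fibroControl, and the 5 probe sets most like the members. Fits were tested on simulated data. Alternatives covered scaling, filtering, the model, the 18S level, the replicate number and each cell left out; fibroTIPeR 1 to 3 or 4 and 5 alone, and counts of groups without overlap under other scalings or with cells left out, were added after seeing the data. Same-numbered cells of 2 groups did not deviate together, with correlations of -0.128 to 0.159, so numbers were not taken as pairs. Promoter sequences are RefSeq's (GRCm38.p6). Figures used matplotlib 3.10.9.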

Additional observations from a re-analysis of the deposited data

Results flagged for a closer look

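Single cells of a group stood far from the others in 4 of 45 groups looked at (15 probe sets in 3 groups of 4 to 6 cells), where chance gives about 1 in 20. Glis2 on 1416598_at was 6.96 in fibroTIPeR 3 against 3.98 to 4.63 in the other fibroTIPeR cells. Epha3 on 1426057_a_at was 5.77 in the same cell against 3.85 to 4.09. Epha3 on 1425574_at was 5.39 in astroTIPeR 4 against 3.30 to 4.0 in the other astroTIPeR cells. Rspo2 on 1455893_at was 10.22 in astroTIPeR 5 against 6.75 to 7.89. Without fibroTIPeR 3, all fibroControl cells lay above all fibroTIPeR cells for 10 of the 15 probe sets instead of 8, the additions being these Glis2 and Epha3 probe sets, against 2.5% of all probe sets.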

How the results depend on the processing

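For the leading probe sets of the members, all 176 differences that use the picked cells moved by less than 1 SD. Of their tested differences, 227 kept direction and side of the threshold while 17, none past it, changed sign. The other member probe sets were not followed in this way. Counts of calls moved more, and the cause was not tested. In the order fibroTIPeR against fibroControl, fibroControl against fibroblast, cardiomyocyte against fibroblast and astroTIPeR against astroControl, 1, 596, 57 and 57 probe sets passed, of which 0, 7, 1 and 0 were related ones. In the first, 0 passed with median centring, quantile normalization within array sets, probe sets above the median level, no trend, the compared groups alone or the replicate block, 9 with 18S as a covariate, 3 with fibroTIPeR 1 to 3 alone and 225 with fibroTIPeR 4 and 5 alone (2 related). In the second, 278 passed as deposited, 229 with median centring, 284 within array sets, 283 with 1 probe set a gene, 131 for the groups alone, 320 with the replicate block and 0 with 18S. Its related count was 4 as deposited, with median centring, within array sets, without trend and with the replicate block, 2 above the median level and 0 for the groups alone or with 18S. In the third, 36 passed as deposited and without trend, 31 with median centring, 35 within array sets, 9 for the groups alone and 133 with 18S, where 1 member probe set passed; its related count was 0 with 1 probe set a gene or the groups alone. In the fourth, 199 passed as deposited, 173 with median centring, 233 within array sets, 19 above the median level, 9 with 1 probe set a gene and 2 with the replicate block. With 1 cell left out, the ranges were 0 to 42 (42 without fibroControl 1), 70 to 404 (related 0 to 5), 19 to 105 (related 0 to 1) and 7 to 1673 (related 0 to 16, the highest without astroControl 1, where the lone astroControl cell is assumed to vary like the other groups). Changes of sign for cardiomyocyte minus fibroblast were Cdsn at -0.011 with median centring, and with 1 cell left out Cdsn at -0.38 to 0.24, Rspo2 at -2.61 to 0.52, Epha3 at -1.03 to 0.051 and Zfp790 at -0.45 to 0.070. For astroTIPeR minus astroControl they were Sprr2h at 0.15 with median centring, Zfp790 at 0.14 with the replicate block, and with 1 cell left out Cdsn at -1.99 to 0.75, Sprr2h at -0.25 to 0.17, Epha3 at -0.0056 to 0.66 and Zfp790 at -0.51 to 0.21. With median centring the share of calls that were lower moved from 49.1% to 32.3% in the third and from 82.5% to 67.1% in the fourth, and to 38.9% as deposited in the third. Counts of members whose groups did not overlap, against fibroTIPeR, fibroblasts or both, were the same under the other scalings. The shares of all probe sets then ran from 1.54% to 1.87%, 9.81% to 13.3% and 0.877% to 1.27%. With 1 cell left out the member counts were 8 to 10, 7 to 9 and 6 to 8 in that order. The shares of all probe sets then ran from 1.64% to 5.4%, 11.9% to 18.5% and 1.11% to 3.85%. Without fibroblast 3 the member counts were 8, 9 and 8 (1.64%, 17.6% and 1.22% of all probe sets). Without fibroControl 2 they were 9, 8 and 8 (3.79%, 17.1% and 2.58%). Counts against cardiomyocytes and against all 20 other cells were not repeated in these ways. Arrays limit precision through their number and the coarse values at low levels.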
